A study of Mus musculus with 3 samples.

Results

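A set of 10 genes that write, copy, oxidise, excise or shield DNA methylation were followed in NOD and B6 mouse blastocysts. They were the maintenance methyltransferase Dnmt1 and its partner Uhrf1, the de novo group Dnmt3a, Dnmt3b and Dnmt3l, the dioxygenases Tet1, Tet2 and Tet3, the glycosylase Tdg, and Dppa3. The members were taken by gene symbol, and all 10 were found among the 24063 genes of the count table. Low-input RNA-Seq was performed with the SMART-Seq V4 kit on 1 library of strain C57BL/6 (B6) and 2 libraries of strain NOD, an inbred mouse that develops autoimmune diabetes. The labels give whole blastocysts, with no treatment and no isolation of RNA before the library step, whereas the study's methods describe inner cell masses (ICMs) taken by immunosurgery. Neither source gives the sex of the embryos, their stage in hours or the mothers, so the p-values measure the spread between these libraries only. The comparison asks how the strains differ in early embryonic gene expression, ahead of disease.

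DNA methylation is the addition of a methyl group to cytosine, mostly where a guanine follows (a CpG). Dnmt1 copies the mark to the new strand after replication, guided there by Uhrf1, while Dnmt3a and Dnmt3b set it on unmarked DNA with the help of the inactive relative Dnmt3l. The TET enzymes oxidise the mark, and Tdg cuts out the most oxidised forms so that base excision repair can restore plain cytosine. In mouse preimplantation development methylation falls to its lowest around the blastocyst stage, and Dppa3, a maternal-effect protein also known as Stella, is known to shield maternal DNA from TET3 and to keep UHRF1 away from chromatin.

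The B6 library held 12505685 counts on genes, NOD 1 33891715 and NOD 2 36171013. Levels are given as CPM, the counts relative to library size after TMM scaling, on which 1 count equals 0.0734 CPM for B6 and 0.0303 and 0.0294 CPM for the NOD libraries. Trophectoderm markers, the genes of the outer layer, summed to 3179 CPM in B6 against 1895 in NOD 1 and 1709 in NOD 2. Of the 9 trophectoderm markers tested, 0 were called and 7 were lower in both NOD libraries than in B6, as were 39.4% of all genes tested. Elf5, which was not tested, had 0 counts in B6 against 7 in NOD 1 and 10 in NOD 2. Markers of the epiblast and ICM summed to 533 CPM in B6 against 806 in NOD 1 and 1020 in NOD 2, and all 10 had counts in every library. They did not move together: 6 were above B6 in both NOD libraries and 4 below, with 3 called higher (Tdgf1, Gdf3 and Zfp42) and Sox2 called lower, at 49.8, 5.75 and 9.61 CPM. Primitive endoderm markers summed to 764, 771 and 983 CPM in that order, with Foxa2 at 0 throughout, while Gata6 was called lower (385.2, 91.5 and 129.9 CPM) and Pdgfra higher (5.50, 23.6 and 24.6 CPM). Oocyte markers stayed at 34.4 CPM or less in sum, with Obox5 at 0 in all libraries, and the sums of the cumulus and leukocyte lists did not exceed 1.03 CPM. In these bulk libraries fewer cells of a type and less RNA per cell cannot be told apart, and the part of cell makeup in the differences below was not tested.

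The promoters of 4 members are shown because Dnmt1 and Uhrf1 form the maintenance pair, and Dnmt3l and Tet2 hold the fewest and the most CpGs among the members' counted starts. Each sequence runs 5′ to 3′ from 250 bases before to 50 bases after the start of the counted transcript, from RefSeq on GRCm38.p6, with every CpG in capitals.
Dnmt1: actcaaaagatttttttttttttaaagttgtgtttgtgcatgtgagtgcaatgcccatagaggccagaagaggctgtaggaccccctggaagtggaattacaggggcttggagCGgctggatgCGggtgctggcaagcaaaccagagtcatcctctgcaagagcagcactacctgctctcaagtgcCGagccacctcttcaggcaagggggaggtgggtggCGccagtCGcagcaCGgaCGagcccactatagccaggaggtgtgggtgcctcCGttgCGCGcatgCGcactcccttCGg
Uhrf1: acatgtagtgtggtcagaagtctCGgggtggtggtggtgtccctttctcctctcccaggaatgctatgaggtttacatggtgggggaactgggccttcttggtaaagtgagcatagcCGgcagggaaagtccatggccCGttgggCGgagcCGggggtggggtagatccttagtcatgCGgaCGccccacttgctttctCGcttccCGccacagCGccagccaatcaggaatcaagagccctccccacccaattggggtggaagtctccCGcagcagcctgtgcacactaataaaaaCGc
Dnmt3l: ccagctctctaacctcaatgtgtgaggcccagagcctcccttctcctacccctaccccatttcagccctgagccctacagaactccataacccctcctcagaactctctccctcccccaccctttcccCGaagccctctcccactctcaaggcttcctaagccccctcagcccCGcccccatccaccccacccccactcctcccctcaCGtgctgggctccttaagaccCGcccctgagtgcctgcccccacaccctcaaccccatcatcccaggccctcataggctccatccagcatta
Tet2: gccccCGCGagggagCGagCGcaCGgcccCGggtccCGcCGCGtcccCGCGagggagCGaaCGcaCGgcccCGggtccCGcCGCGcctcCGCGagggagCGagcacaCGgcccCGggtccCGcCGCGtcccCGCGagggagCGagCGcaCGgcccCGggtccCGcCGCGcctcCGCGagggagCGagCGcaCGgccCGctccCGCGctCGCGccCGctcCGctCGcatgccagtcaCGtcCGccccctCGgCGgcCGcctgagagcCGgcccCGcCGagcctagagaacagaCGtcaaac
The Dnmt1 window lies at chr9:20952930-20953229 on the minus strand, the Uhrf1 window at chr17:56303087-56303386 on the plus strand, the Dnmt3l window at chr10:78049592-78049891 on the plus strand and the Tet2 window at chr3:133544341-133544640 on the minus strand. Dnmt1 and Uhrf1 held 12 CpGs each, Dnmt3l 4 and Tet2 57, beside a median of 7 over 32841 windows of the same length. Tet2 thus stood at percentile 99.9 and Dnmt3l at percentile 38.0 of all promoters.

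A promoter at the counted start was matched for 8 of the 10 members. The other counted starts held 46 CpGs in Dnmt3a, 30 in Dnmt3b, 26 in Tdg and 22 in Tet3. Dnmt1 and Uhrf1 each had a further annotated start close by with 33 CpGs, 356 bases downstream in Dnmt1 and 976 bases downstream in Uhrf1. A GC box (GGGCGG on either strand) was present in 6 of the 8 windows and in 35.7% of all promoters. A CCAAT box (CCAAT on either strand) was present in 3 of the 8 and in 37.4% of all promoters, with 3 matches in the Uhrf1 window. The stretch ccaattgg in that window was matched once on each strand, so that these matches share letters. The E-box CACGTG was present in the Dnmt3l and Tdg windows and in 7.15% of all promoters, while TATAAA and the octamer ATGCAAAT, searched on both strands, were in none of the 8 windows, against 13.6% and 1.74% of all promoters. The Dnmt1 window at the counted start held none of these letters. A match is a description of the sequence only.

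**Figure D1:**
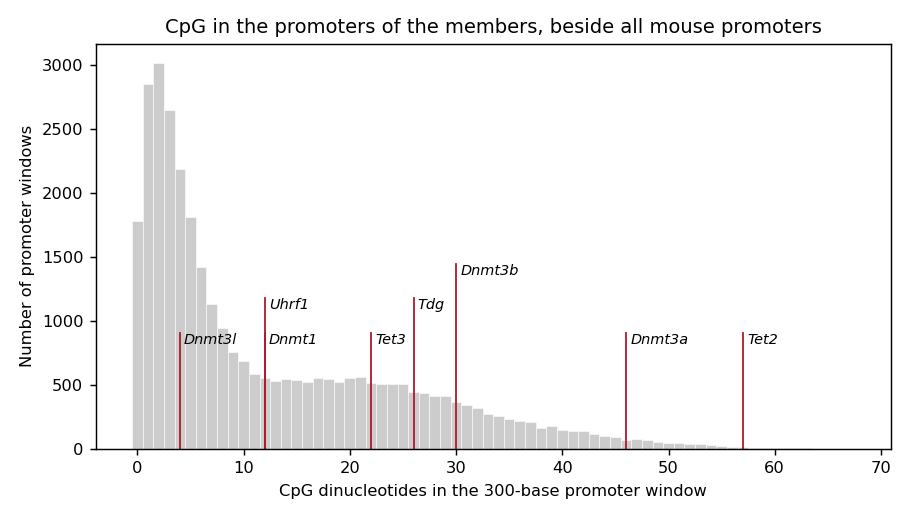
Number of CpGs (horizontal axis) in 300-base promoter windows, with all 32841 windows as the histogram (vertical axis, number of windows) and the 8 members with a window at their counted start as labelled lines. Dnmt3l lies below the median of 7, Dnmt1 and Uhrf1 share 12, and Dnmt3a (46) and Tet2 (57) lie at the far right.

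Of the 10 members, 2 passed the test between strains, in opposite directions. Dppa3 rose 3.25-fold in NOD, and Dnmt1 was 3.24-fold higher in B6. Calls required an adjusted p under 0.05 in edgeR's quasi-likelihood test with Benjamini-Hochberg adjustment over all 14456 genes tested, together with a change of at least 2-fold. By this rule 17.7% of all genes tested were called, 10.3% as higher and 7.39% as lower in NOD, so that 2 of 10 members is close to the background. All 10 members passed the filter on low counts, and 6 had an unadjusted p under 0.05. In both NOD libraries 8 members were below B6 and 1, Dppa3, was above it. Over all genes tested 39.4% were below B6 in both, 45.3% were above it in both, and 84.7% thus had B6 outside the NOD range. The median log2 fold change (NOD minus B6) of the members was -0.93 and that of all genes tested was 0.26. The replicate spread is known for NOD only, with B6 assumed to vary alike, and an exact permutation test of 1 library against 2 cannot give a p below 0.333.

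**Figure D2:**
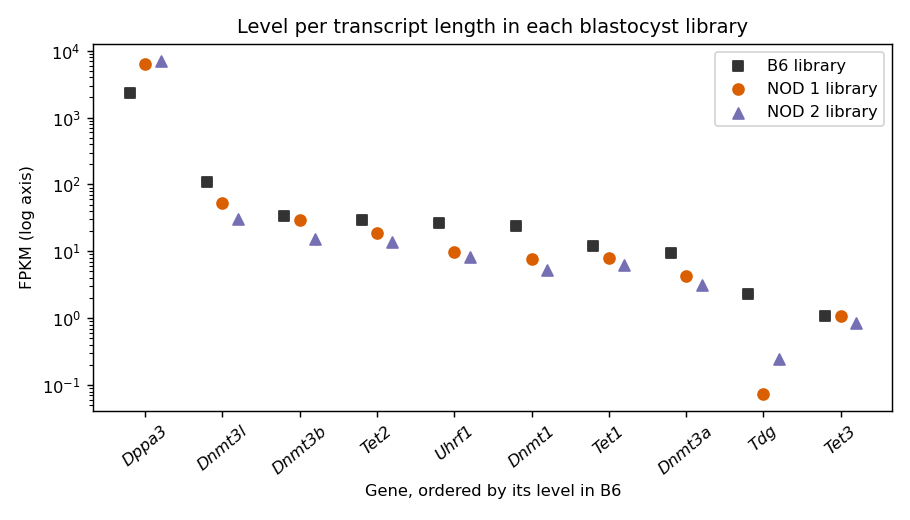
FPKM of each member (counts divided by transcript length and library total, log axis), 1 point per library for B6 and both NOD libraries. Dppa3 lies above the other members in every library and is higher in NOD. Dnmt1 and Uhrf1 are lower in both NOD libraries, and the Tet3 points lie between 0.848 and 1.06 FPKM.

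Dnmt1, the maintenance methyltransferase, was called lower in NOD. The gene (NM_001199431) was counted over the exons of chr9:20907206-20952979 on the minus strand of mm10. It had 1595 counts in B6 against 1409 in NOD 1 and 1006 in NOD 2. Scaled to depth this was 117.1 CPM in B6 against 42.6 and 29.6 CPM in the NOD libraries, a NOD mean of 36.1 ± 9.24 (SD, n = 2). Both NOD libraries were far below B6, and the gap between them was smaller than their distance from B6. The log2 fold change was -1.70 with a standard error of 0.37 (adjusted p = 0.0440, edgeR). The call was lost with upper-quartile scaling (adjusted p = 0.0542), without the filter on low counts (0.0850) and in limma-voom (0.0842), and over all alternatives with a test the adjusted p ran from 0.000501 to 0.0850. No 50-base word of the Dnmt1 transcript occurs in another annotated gene.

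Uhrf1, which brings DNMT1 to sites methylated on a single strand, had 1167 counts in B6 against 1185 in NOD 1 and 1052 in NOD 2. This was 85.7 CPM in B6 against 35.9 in NOD 1 and 30.9 in NOD 2, with a NOD mean of 33.4 ± 3.49 (SD, n = 2). The NOD libraries lay close together and below B6. The log2 fold change of -1.36 (SE 0.34) did not pass the test, at an adjusted p of 0.0553 in edgeR. With the dispersion estimated by edgeR's quasi-likelihood fit itself the adjusted p was 0.0408, in DESeq2 it was 0.00723, and its range over the alternatives was 0.00723 to 0.103. The gene (NM_001111079) spans chr17:56303337-56323486 on the plus strand, and it shares 19.0% of its words of 50 bases with other genes, mainly with the copy Gm5648. Per length, Uhrf1 stood at 1.11 times Dnmt1 in B6, 1.27 times in NOD 1 and 1.58 times in NOD 2, so that the ratio of the pair was somewhat higher in both NOD libraries while both genes had lower CPM there.

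The de novo group was lower in both NOD libraries, and none of the 3 genes passed the test. Dnmt3a, a de novo methyltransferase (NM_007872, chr12:3806980-3914443, plus strand), had 85.4 CPM in B6 against 43.2 in NOD 1 and 32.4 in NOD 2. The 3 libraries held 1164, 1427 and 1103 counts in that order. Its log2 fold change was -1.18 (SE 0.36, adjusted p = 0.0817, edgeR), with a NOD mean of 37.8 ± 7.61 CPM (SD, n = 2).

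Dnmt3l, the cofactor without catalytic activity (NM_019448, chr10:78049842-78063622, plus strand), had 2240 counts in B6 against 3016 in NOD 1 and 1833 in NOD 2. This was 164.4 CPM in B6 against 91.3 in NOD 1 and 53.9 in NOD 2. The NOD libraries, at a mean of 72.6 ± 26.4 CPM (SD, n = 2), differed more from each other than for Dnmt3a, and both stayed below B6. Its log2 fold change was -1.18 (SE 0.39, adjusted p = 0.0967, edgeR). Dnmt3a and Dnmt3l were called among the alternatives in DESeq2 alone, at adjusted p of 0.0230 and 0.0131, with ranges over the alternatives of 0.0230 to 0.140 and 0.0131 to 0.157.

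Dnmt3b, the other de novo methyltransferase (NM_001003961, chr2:153649449-153687730, plus strand), had 132.4 CPM in B6 against 130.5 in NOD 1 and 68.7 in NOD 2. NOD 1 was nearly level with B6 and NOD 2 well below it. The counts were 1804, 4314 and 2338, and the NOD mean was 99.6 ± 43.7 CPM (SD, n = 2). The log2 fold change of -0.41 (SE 0.45, adjusted p = 0.513, edgeR) was smaller than the gap of -0.93 on the log2 scale between NOD 2 and NOD 1, and it was -0.02 with NOD 1 alone and -0.95 with NOD 2 alone. Of the Dnmt3b words 11.5% also occur in another gene, its relative Dnmt3c.

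None of the TET dioxygenases passed the test. Tet2 (NM_001040400, chr3:133463677-133544390, minus strand) had the highest CPM of the 3, with 248.9 in B6 against 175.5 in NOD 1 and 135.4 in NOD 2. Both NOD libraries were below B6, and the log2 fold change was -0.68 (SE 0.27, adjusted p = 0.136, edgeR). Tet1 (NM_001253857, chr10:62804570-62880014, minus strand) had 152.8 CPM in B6 against 116.0 in NOD 1 and 94.3 in NOD 2. The order of the libraries was that of Tet2, with a log2 fold change of -0.54 (SE 0.28, adjusted p = 0.220, edgeR).

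Tet3, known mainly as the TET enzyme of the oocyte and zygote (NM_183138, chr6:83362374-83441678, minus strand), was low in every library. It had 145 counts in B6 against 393 in NOD 1 and 334 in NOD 2, which was 10.6 CPM in B6 against 11.9 in NOD 1 and 9.82 in NOD 2. The B6 value lay between those of the NOD libraries. Its log2 fold change was 0.03 (SE 0.54, adjusted p = 0.972, edgeR), and its sign turned with the scaling, to -0.011 with DESeq2 size factors and -0.16 with total counts, and to -0.12 without NOD 1. The ratio of NOD to B6 counts, scaled to depth, was 1.02, with an exact 95% interval of 0.851 to 1.23 that covers counting error only.

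Dppa3, the shield of methylated maternal DNA, was called higher in NOD. It had 23719 counts in B6 against 171485 in NOD 1 and 208439 in NOD 2. This was 1741 CPM in B6 against 5189 in NOD 1 and 6126 in NOD 2, with a NOD mean of 5657 ± 663 (SD, n = 2). Both NOD libraries were well above B6, by 2.98-fold in NOD 1 and 3.52-fold in NOD 2, and the NOD libraries were close to each other. The log2 fold change was 1.70 with a standard error of 0.19 (adjusted p = 0.0205, edgeR). The call was lost without the filter on low counts (adjusted p = 0.0649) and in limma-voom (0.0631), and the range over the alternatives was 1.23e-08 to 0.0649. With total counts in place of TMM scaling the log2 fold change was 1.51.

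Dppa3 was among the most abundant transcripts of the libraries, with 0.190% of all counts in B6 against 0.506% in NOD 1 and 0.576% in NOD 2. By count it ranked 27 in B6 against 3 in NOD 1 and 2 in NOD 2. The gene (NM_139218) lies at chr6:122626424-122630271 on the plus strand, and 17.7% of the 50-base words of its transcript also occur in another gene, mainly the pseudogene Dppa3-ps. Beside the rise of Dppa3 the sum of the ICM markers was higher, with 6 of the 10 above and 4 below B6 in both NOD libraries, and the sum of the trophectoderm markers was lower, with 7 of 9 below. Their part in it was not tested.

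Tdg, the glycosylase that removes oxidised forms of methylated cytosine, had 93 counts in B6 against 8 in NOD 1 and 28 in NOD 2. This was 6.83 CPM in B6 against 0.242 in NOD 1 and 0.823 in NOD 2. Both NOD libraries were far below B6 and differed from each other by 1.77 in log2 CPM. At -3.67 (SE 1.11), the log2 fold change was the largest in size among the members, and it did not pass the test at an adjusted p of 0.0792 in edgeR. The depth-scaled ratio of B6 to NOD counts was 12.7, with an exact 95% counting interval of 8.57 to 19.2.

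The counts of Tdg (NM_172552, chr10:82629838-82650494, plus strand) were shared in their sequence with other genes. It shares 66.3% of its words of 50 bases, in the pseudogenes Tdg-ps, Gm9855 and Gm5597 and in Glt8d2. Gm9855 is listed inside the Tdg span on the same strand, at 93 counts in B6 against 4 in NOD 1 and 8 in NOD 2. Its B6 count equalled that of Tdg, and it was itself called lower in NOD (adjusted p = 0.0383, edgeR). Glt8d2, which overlaps the end of Tdg on the opposite strand, had 5, 15 and 50 counts in that order, and reads were counted without regard to strand. The level of Tdg is therefore uncertain.

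**Figure D3:**
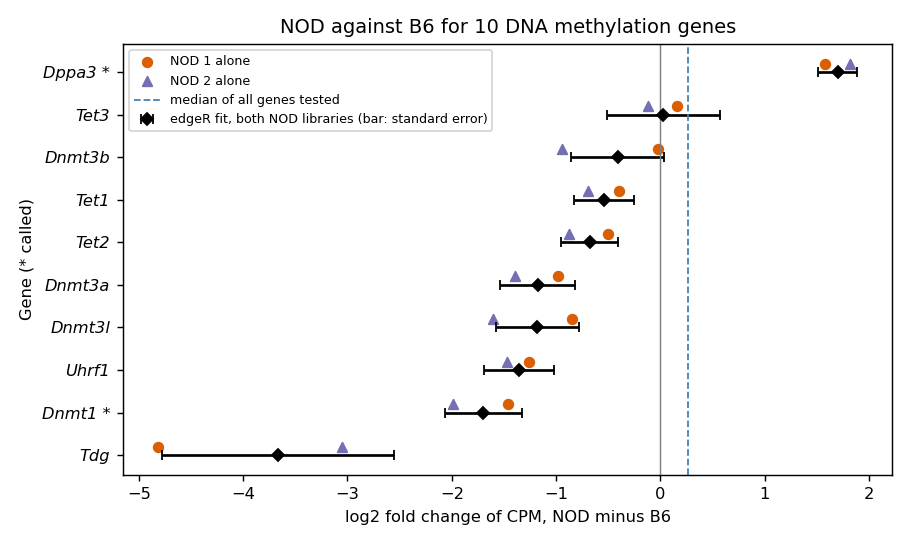
log2 fold change of CPM, NOD minus B6 (horizontal axis), for each of the 10 members: diamonds with bars give the edgeR value from both NOD libraries and its standard error, circles NOD 1 alone, triangles NOD 2 alone, and the dashed line the median of all genes tested (0.26). Dppa3 lies to the right at 1.70, Tet3 at 0.03, and the other members lie to the left, as far as Tdg at -3.67.

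Levels between genes were compared as FPKM, the counts divided by transcript length and by the library total. Dppa3 led the members in every library, with 2336 FPKM in B6 against 6231 in NOD 1 and 7097 in NOD 2. Dnmt3l followed at 107.8, 53.6 and 30.5 FPKM, and then Dnmt3b at 33.6, 29.6 and 15.0 FPKM. Dnmt3l was thus above the catalytic enzymes that it assists in each library.

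The middle of the order was close in B6 and wider in NOD. In B6, Tet2 had 29.6 FPKM, Uhrf1 26.5, Dnmt1 23.9, Tet1 11.8 and Dnmt3a 9.59. In NOD, Tet2 had a mean of 16.3 ± 3.38 FPKM, Uhrf1 9.08 ± 1.18, Tet1 7.17 ± 1.23, Dnmt1 6.51 ± 1.83 and Dnmt3a 3.74 ± 0.846 (SD, n = 2 each). The NOD ranges of Dnmt3b and Tet2 overlapped, as did those of Tet1 and Dnmt1, and no other neighbours in the order overlapped. Tet3 had 1.06 FPKM in B6 against 1.06 in NOD 1 and 0.848 in NOD 2, and Tdg 2.32, 0.0736 and 0.241. The order was the same in all 3 libraries except that Dnmt1 stood above Tet1, and Tdg above Tet3, in B6 only.

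Ratios of FPKM within a library do not depend on its scaling. Dppa3 stood at 97.6 times Dnmt1 in B6, 799 times in NOD 1 and 1360 times in NOD 2. Tet1 stood at 0.494 times Dnmt1 in B6, 1.03 times in NOD 1 and 1.21 times in NOD 2, and Tet2 at 1.24, 2.39 and 2.66 times. The ratios of these dioxygenases to Dnmt1 were thus higher in both NOD libraries. Dnmt3b over Dnmt1 went the same way, at 1.40 in B6 against 3.80 in NOD 1 and 2.88 in NOD 2. B6 lay outside the NOD range each time, as it did for the CPM of 84.7% of all genes tested. All these ratios have Dnmt1, called lower in NOD, as denominator. Tet1 and Tet2 themselves had lower CPM in both NOD libraries than in B6.

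Dppa3 over Uhrf1 was 88.3 in B6, 629 in NOD 1 and 861 in NOD 2, and Dppa3 over Dnmt3l 21.7, 116.3 and 232.6. Tet1 over Tdg was 5.10, 109.2 and 26.1, with the limits on the Tdg counts given above. Dnmt3l over Dnmt3a was 11.2 in B6 against 12.4 in NOD 1 and 9.71 in NOD 2, with B6 inside the NOD range. Dnmt3l over Dnmt3b was 3.21 in B6 against 1.81 in NOD 1 and 2.03 in NOD 2. Tet2 over Tet1 was 2.50, 2.32 and 2.20, and Tet1 over Tet3 was 11.1, 7.55 and 7.43. The summed FPKM of the 3 catalytic methyltransferases over that of the 3 TET enzymes was 1.58 in B6 against 1.50 in NOD 1 and 1.11 in NOD 2, with B6 above both NOD values and closer to NOD 1 than NOD 2 was.

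**Figure D4:**
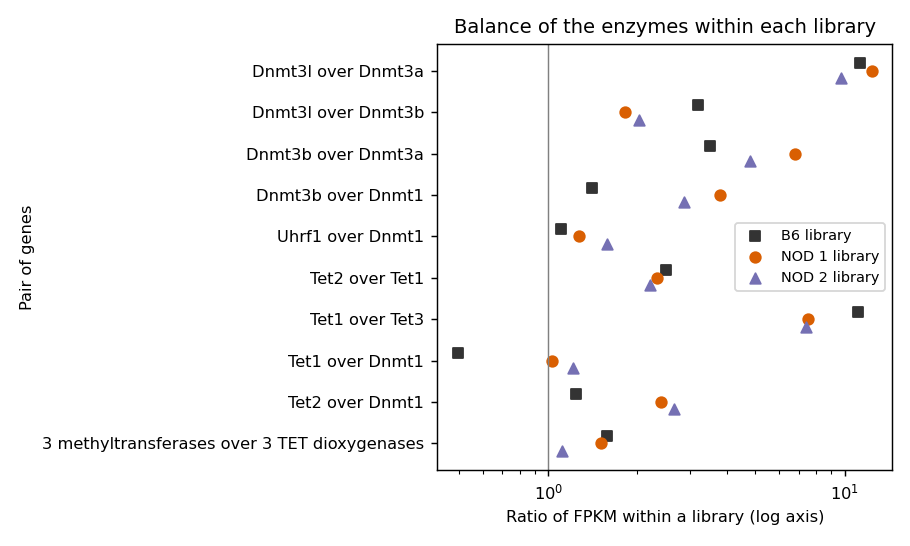
Ratios of FPKM between members within each library (horizontal log axis), 1 point per library. The last row gives the summed catalytic methyltransferases over the summed TET enzymes. Tet1 over Dnmt1 was 0.494 in B6 against 1.03 and 1.21 in NOD, while Dnmt3l over Dnmt3a in B6 (11.2) lies between the NOD values.

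The genes around the methylation cycle were taken from 9 lists. Without the filter on low counts and in limma-voom no gene of any list was called, since these settings called 0 of all genes, with 5568 and 3924 genes at an unadjusted p under 0.05. Upper-quartile scaling also ended the calls of Mbd3, Cbx5 and Xrcc1, at adjusted p of 0.0559, 0.0604 and 0.0547, and edgeR's own dispersion estimate those of Neil3 and Slc25a31, at 0.0837 and 0.0507. Among methyl-CpG readers and their relatives, 2 of 7 tested were called lower and 0 higher, with a median log2 fold change of -0.61, which was -1.23 without NOD 2. These were Mbd1, a methyl-CpG binding repressor, at 45.8 CPM in B6 against 8.74 in NOD 1 and 9.40 in NOD 2, and Mbd3, the relative found in the NuRD complex, at 148.6, 63.5 and 60.7 CPM. Of 11 maintenance partners tested, 1 was called lower and 0 higher, with a median of 0.69, or 0.19 with the gene at 0 in B6 set to its bound. Without NOD 2 this median was -0.06, on the other side of 0. The called partner was Lig1, the ligase of replication, at 367.8 CPM in B6 against 134.1 in NOD 1 and 119.7 in NOD 2. Usp7, a deubiquitinase that binds DNMT1 and UHRF1, was not called, with 307.4, 211.8 and 156.3 CPM.

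Of 12 genes for H3K9 methylation and imprint protection, 1 was called higher and 2 lower (median -0.05). Ehmt2, the methyltransferase G9a, fell from 205.3 CPM in B6 to 36.6 in NOD 1 and 34.1 in NOD 2. Cbx5, a heterochromatin protein of the HP1 family, had 280.0 CPM in B6 against 144.4 in NOD 1 and 115.7 in NOD 2. Its relative Cbx1 rose, from 10.8 to 132.9 and 130.3 CPM, and the pseudogene Gm11517 overlaps it on the other strand with 1726, 8720 and 7241 counts. Of 5 enzymes of H3K36 and H3K4 methylation, 0 were called, and the most abundant were Nsd1, at 179.7, 150.0 and 97.4 CPM, and Setd2, at 130.6, 154.5 and 93.9 CPM.

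In base excision repair, the pathway that follows TDG, 3 of 11 genes tested were called higher and 2 lower (median -0.26). Neil3, a glycosylase, had 0 counts in B6, which allows up to 0.220 CPM, and 6.81 and 7.67 CPM in the NOD libraries, the NOD mean being at least 32.9-fold higher than that floor of 3 counts. Mbd4, a glycosylase that acts on mismatches at CpGs, rose from 6.53 CPM in B6 to 27.7 and 36.2 CPM. Its call (adjusted p = 0.0419, edgeR) was also lost with total counts (0.0524), upper-quartile scaling (0.0533) and edgeR's own dispersion estimate (0.0502). Apex1, the main nuclease at sites without a base, rose from 197.2 to 507.8 and 584.7 CPM. Of its words 65.6% also occur in the overlapping gene Tmem55b on the other strand, which had 3029, 17355 and 18952 counts. Apex1 had 2687, 16782 and 19895 counts, and reads were counted without regard to strand. The level of Apex1 is therefore uncertain. Xrcc1, the scaffold of single-strand repair, fell from 198.8 CPM to 69.4 and 40.3 CPM. The remaining call was Ung, the uracil glycosylase, at 82.5, 31.3 and 22.8 CPM, which was named after its value was seen.

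Among TET partners and enzymes of 2-oxoglutarate, the cosubstrate of the TET reaction, 2 of 15 were called higher and 2 lower (median -0.01). Ogdh, which uses up 2-oxoglutarate, fell from 318.1 CPM in B6 to 68.4 and 67.2 CPM in NOD, and Cxxc5, a CXXC zinc finger protein, from 44.5 to 8.53 and 9.70 CPM. Idh2, which makes 2-oxoglutarate in mitochondria, rose from 73.2 to 165.7 and 236.8 CPM. The call of Idh2 (adjusted p = 0.0496, edgeR) was also lost with DESeq2 size factors (0.0506), total counts (0.0648) and upper-quartile scaling (0.0673).

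In the methyl donor cycle 2 of 14 genes tested were called higher and 2 lower (median 0.03). Bhmt, which remethylates homocysteine from betaine, rose from 102.5 CPM in B6 to 286.9 and 225.0 CPM, and its relative Bhmt2 had 1 count in B6 against 1906 and 2227 in NOD. The call of Bhmt (adjusted p = 0.0444, edgeR) was also lost with total counts (0.0664) and upper-quartile scaling (0.0548). The depth-scaled ratio of Bhmt2 was 840, with an exact counting interval of 151 to 33167. Cbs, which draws homocysteine out of the cycle, fell from 177.0 to 3.72 and 10.6 CPM, and Ahcy, which clears the product of methyl transfer, from 64.7 to 17.6 and 11.9 CPM. Of the words of Ahcy and Bhmt, 77.0% and 61.5% also occur in other genes.

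Of 9 genes that neighbour Dppa3 or belong to the Dppa group, 2 were called higher and 0 lower (median 1.23). Gdf3, which lies beside Dppa3 on chromosome 6, rose from 38.2 CPM in B6 to 185.1 and 129.8 CPM. Dppa5a, an RNA-binding protein of pluripotent cells, rose from 848.6 to 2251 and 2966 CPM, and 38.6% of its words also occur in other genes.

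Among germline genes known to be silenced by promoter methylation, 6 of 11 tested were called higher in NOD and 0 lower, with a median of 3.75. This list was drawn up with results of these data known. Tex101, a surface protein of germ cells, had 0 counts in B6 and 705 and 736 in NOD, the NOD mean in CPM being at least 97.6-fold higher than the same floor. Ddx4, the germ cell helicase Vasa, had 6 counts in B6 and 939 and 942 in NOD. Mael, of the piRNA pathway, rose from 4.62 CPM to 53.9 and 114.5 CPM, and Slc25a31, an adenine nucleotide carrier of the testis, from 4 counts to 421 and 1324. The other two were Dazl, an RNA-binding protein of germ cells, at 0, 94 and 121 counts, and the tubulin Tuba3a, at 3.08, 15.4 and 21.5 CPM, both named after their values were seen. With total counts and with upper-quartile scaling 4 genes of the list were called, and the calls of Dazl and Tuba3a were lost under both. edgeR's own dispersion estimate also called 4 of them and DESeq2 8. The other 5 genes tested were not called, of which Sycp1 and Hormad1 had log2 fold changes of -0.41 and -1.07, and Tdrd1 had no counts. No methylation was measured in these embryos.

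**Figure D5:**
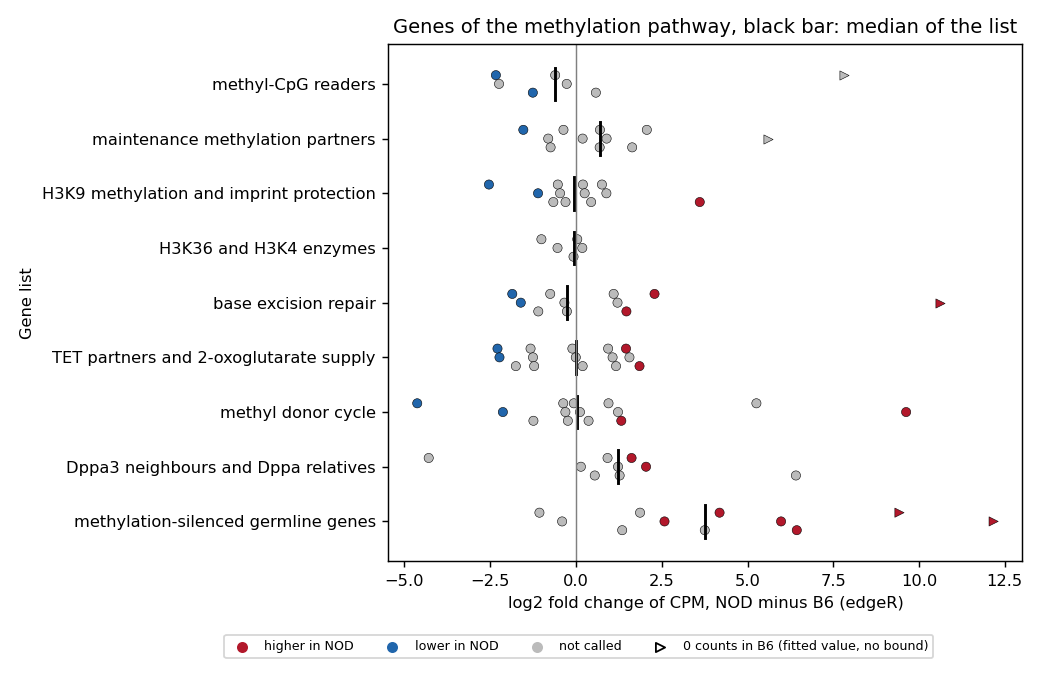
log2 fold change, NOD minus B6 (horizontal axis), of each gene tested in the 9 lists, with red points called higher, blue points called lower and grey points not called, a black bar at each list's median, and triangles for genes with 0 counts in B6, whose fitted value is no bound. The germline list lies furthest to the right (median 3.75), the H3K36 and H3K4 list has no call, and most other lists have calls on both sides.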

How the data were processed

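Low-input RNA-Seq of blastocysts was analysed in 3 libraries, 1 of B6 and 2 of NOD, grouped by the strain in their labels. The deposited values are raw read counts per gene. Per the labels and the study's methods, the authors ran 50-base single-end sequencing, used STAR for alignment to mm10 and HOMER for counting, and kept 1 RefSeq transcript for each gene, with exonic reads of either strand pooled. The submitters' processing notes list STAR 2.2.0c and CASAVA 1.8.2, and the methods give another STAR version. Both strains were aligned to 1 reference, and the effect on the counts was not tested. How reads matching several places were treated is not given in the sources used here. The counting command in the header names 5 libraries, of which the 3 blastocyst libraries have columns in the table used here, and the morula and the positive control are not analysed here.

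From the counts, edgeR 4.0.16 (R 4.3.3) was run on all 14456 genes that passed filterByExpr (min.count 10), with TMM factors, the trended dispersion of estimateDisp and the quasi-likelihood test, and p-values were adjusted by Benjamini-Hochberg over all of them. The thresholds for a call were 0.05 for the adjusted p and 2-fold for the change. The median biological coefficient of variation was 0.374. CPM uses TMM-scaled library sizes, and FPKM uses total counts and the listed length. The floor of a count of 0 is 3 counts (0.220 CPM in B6). Counting intervals are exact 95% Clopper-Pearson intervals and cover counting error only. The alternatives were other scalings, no filter, DESeq2 1.42.0, limma 3.58.1 (voom), another dispersion estimate, each NOD library left out, and the longest annotated transcript as length. The edgeR fit was tested on simulated counts. Words of 50 bases were compared between GENCODE M21 transcripts, and promoters came from RefSeq tables of GRCm38.p6, which hold 9 of the 10 members. The members and lists were chosen with earlier results of these data known. Named genes were all members and, from each list, up to 4 called genes by lowest adjusted p, filled to 2 by highest mean CPM where fewer were called, with the exceptions given in the text. The values of 1 called gene of the TET partner list are not reported here.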

Additional observations from a re-analysis of the deposited data

How the results depend on the processing

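The B6 group has 1 library, so that its spread is taken from NOD, and the number of calls depends on how that spread is modelled. No paired analysis was possible because B6 has 1 library and the groups share fewer than 2 replicate numbers. Of 14456 genes tested, 1483 were called higher and 1069 lower. DESeq2 called 2346 higher and 1864 lower, and upper-quartile scaling 701 lower and 1016 higher. Without the filter on low counts and in limma-voom 0 genes were called, with 5568 and 3924 genes at an unadjusted p under 0.05 and smallest adjusted p of 0.0649 and 0.0501. Both settings therefore also called 0 members and 0 genes of each list. The share of calls that were higher was 58.11%, against 47.81% with total counts and 47.27% with edgeR's own dispersion estimate, an alternative chosen after seeing the data.

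Among the members, 1 was called higher and 1 lower. Upper-quartile scaling called 0 lower, edgeR's own dispersion estimate 2 and DESeq2 4. Tet3 changed sign, to -0.011 with DESeq2 size factors and -0.011 in DESeq2 to -0.16 with total counts and to -0.12 without NOD 1, and the other 9 members kept their sign under all 9 alternatives. Upper-quartile scaling called 1 methyl-CpG reader, 1 H3K9 gene and 0 base excision repair genes as lower, and 1 gene each of the TET partner and methyl donor lists as higher. Total counts also left 1 gene higher in both of these lists, and DESeq2 size factors 1 in the TET partner list. edgeR's own dispersion estimate called 1 base excision repair gene higher and 4 TET partners lower, and DESeq2 called 4 TET partners higher, 4 lower and 4 Dppa3 neighbours higher. Of the germline list, 4 genes were called higher with total counts, 4 with upper-quartile scaling, 4 with edgeR's own dispersion estimate and 8 in DESeq2, against 6. The cause of these changes was not tested.

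With the longest annotated transcript as length, the NOD mean of Dnmt3l over Dnmt3b was 1.76, of Tet1 over Tet3 7.34 and of Tet2 over Dnmt1 2.78. With a single NOD library there is no test, and the log2 fold change ran from -1.99 to -1.46 for Dnmt1, from 1.58 to 1.82 for Dppa3 and from -4.80 to -3.05 for Tdg. Among list medians, that of the maintenance partners was -0.06 without NOD 2 and 0.84 without NOD 1. The medians near 0 also changed sign, to 0.03 for the H3K9 list and 0.07 for the H3K36 and H3K4 list without NOD 2, and to 0.27 for the TET partners and -0.0055 for the methyl donor cycle without NOD 1. The methyl donor median was also -0.013 with DESeq2 size factors, -0.013 in DESeq2 and -0.16 with total counts, and the TET partner median 0.012 with upper-quartile scaling and 0.021 without the filter.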
